A study of Mus musculus with 24 samples.

Results

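Mef2a, Mef2c and Mef2d are described here across mouse blood stem cells, normal and leukemic granulocyte monocyte progenitors, and progenitors that carry a leukemia oncogene. The members are the probe sets whose only gene symbol in the platform annotation is 1 of these 3 genes. They number 12 of the 22626 probe sets that are no controls: 5 for Mef2a, 5 for Mef2c and 2 for Mef2d. A probe set is a group of short probes read together as 1 value. For each gene, the lead probe set is the one with the highest mean over all arrays: 1427185_at for Mef2a, 1424852_at for Mef2c and 1434487_at for Mef2d. The fourth family gene, Mef2b, was not a member, and its single probe set stayed under the background level on every array (3.61 to 5.45 on the log2 scale).

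Mef2 proteins are transcription factors of the MADS-box family that bind an A/T-rich DNA element. Class IIa histone deacetylases bind them and hold their target genes silent, kinases that phosphorylate these deacetylases send them out of the nucleus, and MAP kinases and calcineurin raise Mef2 activity directly. In blood, Mef2c is known from lymphoid, megakaryocyte and monocyte development and from acute leukemias in which its level is high.

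RNA was measured on 24 short-oligonucleotide arrays, and every sample came from C57BL/6 mice. The fresh, untransduced groups were LSK cells (3 arrays, titled HSC), which hold the blood stem cells, and granulocyte monocyte progenitors (GMP, 4 arrays), which give rise to neutrophils and monocytes. GMP were also infected with an empty vector that carries GFP (the GFP group, 3 arrays), with MOZ-TIF2 (MT2, 4 arrays), with NUP98-HOXA9 (NHA9, 3 arrays) or with AML1-ETO (AE, 4 arrays), and their GFP-positive cells were collected after 36 hours. The last group was leukemic cells with the surface phenotype of GMP from a MOZ-TIF2 leukemia (L-GMP, 3 arrays). The sources used here do not name the promoter that drives each oncogene, nor whether replicates came from separate mice, cultures or leukemias. All p-values thus reflect only how far these samples differ, and part of that spread may be technical. In bulk samples such as these, fewer cells of a type and less RNA per cell cannot be told apart. Normal GMP were sorted without infection, so infection, the hours after it and the sort for GFP cannot be told apart between the GFP group and normal GMP.

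Defining markers followed the labels of the fresh groups. All 5 measured GMP markers (Mpo, Elane, Prtn3, Ctsg and Fcgr3) were lower in LSK than in GMP, and the 3 measured stem cell markers (Kit, Meis1 and Hlf) were higher. On each array, 46.1% to 48.3% of probe sets exceeded a linear value of 60 (5.91 on the log2 scale), called the background level here. The difference between the 3' and 5' control probes of Gapdh, a measure of RNA quality, was highest on L-GMP 1 (4.82 log2 units). It lay between 2.50 and 4.51 on the other 23 arrays. File names carry a tag A, a tag B or none, of unstated meaning: most arrays carry A, GMP 4, MT2 4 and AE 2 to AE 4 carry B, and LSK 3, NHA9 3, L-GMP 2 and L-GMP 3 carry none.

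The promoters are shown because Mef2a rose and Mef2c fell in the empty vector group against normal GMP. Among the Mef2 promoters, Mef2a alone has a sequence match to the MEF2 consensus, the element that the protein family binds, at its start. Binding at this match and its part in these changes were not tested. The windows run from 100 bases before a transcription start to 8 bases from it, 5′ to 3′ on the gene's strand, from the RefSeq promoter table (GRCm38.p6). Capitals mark a match to the MEF2 consensus. The windows are Mef2a at chr7:67372851-67372958 on the minus strand, and on the plus strand the 3 annotated starts of Mef2c at chr13:83503934-83504041, chr13:83523556-83523663 and chr13:83573507-83573614.
Mef2a: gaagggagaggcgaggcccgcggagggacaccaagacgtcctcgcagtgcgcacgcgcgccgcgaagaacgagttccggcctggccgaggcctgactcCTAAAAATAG
Mef2c, start 1: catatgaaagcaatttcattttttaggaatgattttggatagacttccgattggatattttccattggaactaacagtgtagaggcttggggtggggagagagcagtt
Mef2c, start 2: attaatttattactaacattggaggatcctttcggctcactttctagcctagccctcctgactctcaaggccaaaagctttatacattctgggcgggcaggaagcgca
Mef2c, start 3: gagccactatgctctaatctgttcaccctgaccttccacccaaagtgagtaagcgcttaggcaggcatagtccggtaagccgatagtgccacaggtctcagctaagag

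The element CTAAAAATAG of Mef2a begins 2 bases before the start. Over the full 300-base promoters of the table, searched on both strands, this exact sequence stands in 36 of 32851 promoters (0.110%). The looser MEF2 consensus stands in 3.19% of them. Among the 5 Mef2 promoters, which include 1 of Mef2d, Mef2a alone holds either. The core letters of the AML1 site, TGTGGT, stand in 16.8% of all promoters and in 0 of the 5. The letters GAGGAA, part of the site of the myeloid factor PU.1, stand in 28.3% of all promoters and in 3 of the 5. The letters TGACAG of the Meis site stand in 19.2% of all promoters and in 0 of the 5. The exact element is 1 form of the consensus, and no other motif of these contains another.

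Over the 7 groups, Mef2c and Mef2a varied more clearly than Mef2d, each in its own order. limma's F-test for any difference between group means passed for 10 of the 11 members tested, where 56.3% of all probe sets tested passed, so passing it is common here. Its adjusted p was 3.85e-05 for the Mef2c lead, 0.000299 for the Mef2a lead and 0.0347 for the Mef2d lead. The probe set that missed it was Mef2d 1421388_at (adjusted p = 0.264). The probe set that could not be tested was Mef2a 1425426_a_at, which stayed under the background level on every array.

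**Figure D1:**
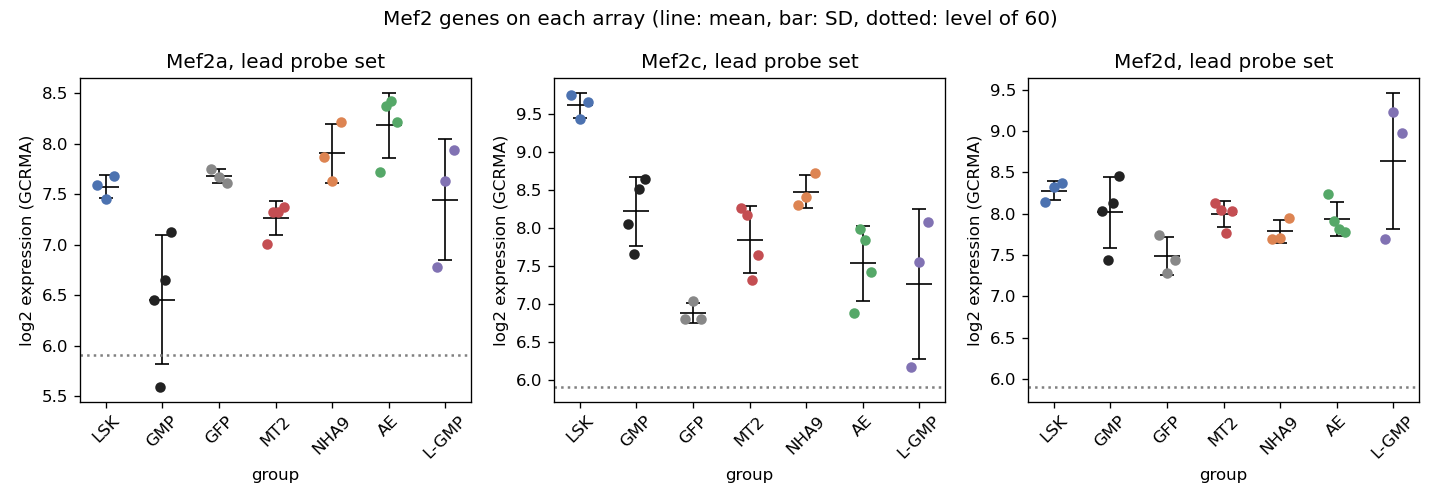
Log2 expression of the lead probe set of Mef2a, Mef2c and Mef2d on each of the 24 arrays by group; points are arrays, the line is the group mean, the bar is the SD and the dotted line is the level of 60. Mef2c is highest on the 3 LSK arrays (9.44 to 9.76) and lowest as a group with the empty vector (6.80 to 7.04), while Mef2a is lowest in normal GMP.

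Mef2c, the family member best known in blood, was highest in LSK, where the 3 arrays read 9.76, 9.44 and 9.66 (log2 expression). Normal GMP read 8.05, 7.66, 8.52 and 8.64, and the empty vector group 6.81, 7.04 and 6.80. These 3 groups did not overlap, and they fell in that order. With an oncogene, MT2 arrays read 8.26, 8.17, 7.31 and 7.65. NHA9 arrays read 8.31, 8.40 and 8.73, and AE arrays 6.88, 7.99, 7.85 and 7.42. All MT2 and NHA9 arrays were above every empty vector array, while AE 1 lay inside the range of the empty vector. L-GMP arrays read 6.16, 7.55 and 8.09, a spread of almost 2 log2 units in which L-GMP 1 was the lowest of all 24 arrays.

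The order of group means for Mef2c was LSK, NHA9, GMP, MT2, AE, L-GMP and the empty vector. Between neighbours in that order, the gap from LSK to NHA9 passed in the limma fit to all arrays (1.14, adjusted p = 0.0219), a contrast in which 31.5% of all probe sets tested passed. The 5 other gaps between neighbours lay between 0.26 and 0.39 and did not pass.

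LSK against GMP asks which genes fall as stem cells become myeloid progenitors. Here 4 of the 11 members tested passed, all higher in LSK, where 15.1% of all probe sets tested passed in either direction and 10.1% as higher. The Mef2c lead stood at 9.62 ± 0.16 (SD, n = 3) in LSK and 8.22 ± 0.45 (SD, n = 4) in GMP. That difference of 1.40 (SE 0.24, adjusted p = 0.00544 by limma) is 2.64-fold and larger than the spread in either group. On the other Mef2c probe sets, 1451506_at was higher in LSK by 0.92 (adjusted p = 0.00401) and 1451507_at by 0.90 (adjusted p = 0.0319). The fold for 1451507_at was at least 1.21, since the GMP mean lay under the background level there. Its call was lost without any LSK array, GMP 1 or GMP 3 (adjusted p = 0.0643 to 0.122). The filter for testing asks for at least 2 arrays over the background level in at least 1 group compared. Mef2c 1451507_at met it through LSK only, so the direction of its call follows in part from the filter. The 2 remaining Mef2c probe sets were also higher in LSK on average but did not pass. They too met the filter through LSK only, as did Mef2a 1427186_a_at and 1421252_a_at, so the same limit holds for them. The calls of the Mef2c lead and of 1451506_at held without each array in turn (1.21 to 1.54 for the lead), and for the lead within arrays of file name tag A the difference was 1.52 (adjusted p = 0.0222). By the unequal-variance test of the series' design text, no member passed in LSK against GMP, with adjusted p of 0.0747 for the lead and 0.0884 for 1451506_at. The share of all probe sets that passed by that test is not given here for any comparison, so its counts lack that background. The call of 1451506_at was also lost in 1 fit to all 24 arrays (adjusted p = 0.0596) and with the tag added to it (adjusted p = 0.0780).

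Mef2a, the ubiquitous family member, was lowest in normal GMP, at 6.46, 5.59, 6.65 and 7.13. The GMP 2 value lay under the background level. LSK arrays read 7.59, 7.46 and 7.68, all above every GMP array. The difference was 1.12 (SE 0.31, adjusted p = 0.0410), a 2.17-fold higher level in LSK. Leaving out any LSK array, GMP 1 or GMP 3 ended the call (adjusted p = 0.0628 to 0.135 for differences of 1.07 to 1.18), and leaving out GMP 2 kept it at 0.83 (adjusted p = 0.0102). Within tag A arrays the difference was 1.29 (adjusted p = 0.0554). For the count of members, leaving out GMP 2 or GMP 3 gave 7, and leaving out GMP 1 or any LSK array gave 2. Over all probe sets, the calls ran from 765 to 2864 when 1 array was left out. The 3' minus 5' difference of Gapdh was 4.33 on GMP 2 beside 3.40 to 4.12 on the other GMP arrays, and its part in the result was not tested.

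Mef2d did not pass in LSK against GMP. LSK arrays read 8.15, 8.32 and 8.37, and GMP arrays 8.03, 7.44, 8.13 and 8.46. The groups overlapped, with a difference of 0.26 (SE 0.23, adjusted p = 0.483). Between the same groups, the summed linear level of the 8 monocyte, macrophage and dendritic cell markers was 1720 to 3023 in LSK and 3043 to 4591 in GMP. That of the B lymphoid markers was 328 to 363 in LSK and 392 to 447 in GMP, with Cd79a, Ebf1, Pax5 and Vpreb1 under the background level in both groups. The part of such cells in the Mef2 values was not tested.

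The empty vector group against normal GMP measures what infected and sorted cells had in common before any oncogene. Mef2c fell and Mef2a rose: 2 members passed as higher and 2 as lower of 8 tested, where 15.7% of all probe sets tested passed, 8.25% as higher and 7.43% as lower. The Mef2c lead was at 6.88 ± 0.14 (SD, n = 3) with the vector, which is lower than in GMP by 1.34 on the log2 scale (−1.34, SE 0.24, adjusted p = 0.00605), or 2.53-fold. Mef2c 1451506_at read 5.38, 5.39 and 5.74 with the vector, all under the background level, against 6.42 to 6.59 in GMP. It differed by −1.03 (adjusted p = 0.00207), at least 1.54-fold. This probe set met the filter through GMP only, so its direction follows in part from the filter. Both Mef2c calls held without each array in turn, with the lead between −1.52 and −1.20, and within tag A arrays the lead differed by −1.20 (adjusted p = 0.0108). By the unequal-variance test no member passed here either, with adjusted p of 0.0719 for the Mef2c lead, 0.0792 for 1451506_at and 0.149 for the Mef2a lead.

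Mef2a in the empty vector group read 7.75, 7.67 and 7.61, above every GMP array. The lead differed by 1.22 (SE 0.31, adjusted p = 0.0275), 2.33-fold, and by 1.44 within tag A arrays (adjusted p = 0.00989). Mef2a 1421252_a_at rose by 0.94 (adjusted p = 0.0166), at least 1.08-fold against a GMP group under the background level, and that call was lost without GMP 1 or GFP 2 (adjusted p = 0.0543 and 0.0539). The probe set met the filter through the vector group only, so its direction follows in part from the filter. Without GFP 1 or GFP 3 it no longer met the filter and was not tested. The lead call was lost without GMP 1, GMP 3 or any vector array (adjusted p = 0.0513 to 0.103 for differences of 1.18 to 1.29). Leaving out GMP 2 gave 7 members past the threshold, and leaving out GMP 1 or any vector array gave 2. Over all probe sets, the calls ran from 811 to 4043 when 1 array was left out. Mef2d read 7.74, 7.29 and 7.44 with the vector and differed from GMP by −0.52 (SE 0.24, adjusted p = 0.180). That call turned without GMP 2, to −0.72 (adjusted p = 0.00903).

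Monocyte markers moved with this comparison. The summed linear level of the 8 markers of monocytes, macrophages and dendritic cells ran from 3043 to 4591 in GMP and from 6626 to 7300 with the vector, and 4 of the 6 tested rose (Csf1r, Adgre1, Cd14 and H2-Ab1) and none fell. Of the 3 stem cell markers tested, 2 fell: Kit, and Meis1, which fell by 1.78. The summed megakaryocyte markers ran from 982 to 2002 in GMP and from 468 to 896 with the vector: Itga2b and Pf4 fell and Ppbp rose, and Gp1bb and Vwf were under the background level in both groups. The summed B lymphoid markers ran from 249 to 309 with the vector, with Cd79a, Ebf1, Pax5 and Vpreb1 under the background level in all 7 groups. The part of these cell types in the Mef2 results was not tested.

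**Figure D2:**
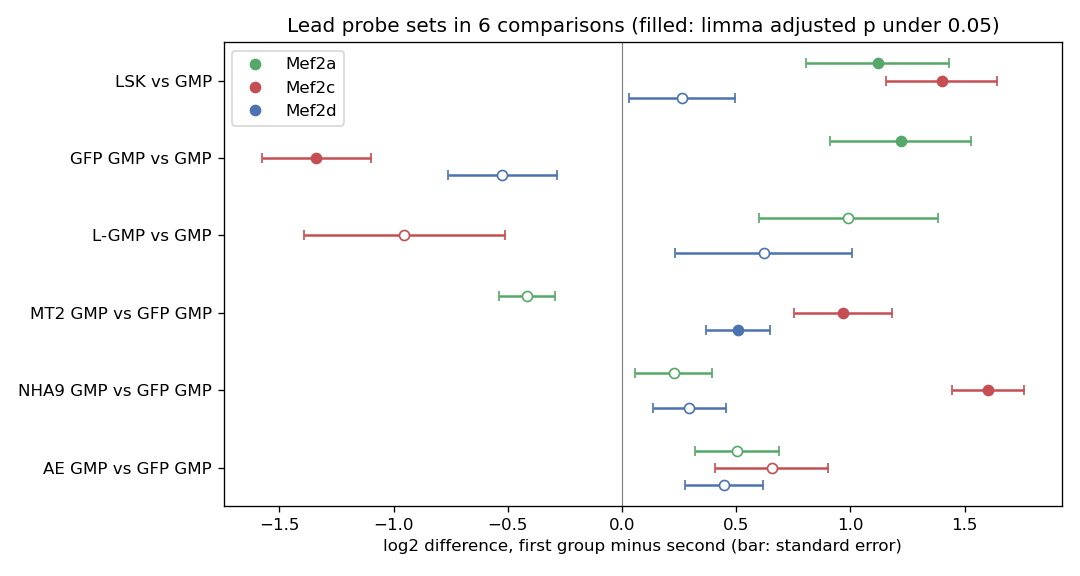
Log2 difference (first group minus second, horizontal axis) of the lead probe sets in 6 comparisons; points are limma estimates, bars their standard errors, and filled points have an adjusted p under 0.05. Mef2c and Mef2a lie on the same side in LSK against GMP (1.40 and 1.12) and on opposite sides in the empty vector group against GMP (−1.34 and 1.22).

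Each oncogene against the empty vector asks what the oncogene adds within 36 hours. The 3 comparisons share their control arrays, so their values are given side by side and are not independent of each other. With MT2, 3 of the 8 members tested passed and all rose, where 11.8% of all probe sets tested passed and 8.91% as higher. Mef2c stood at 7.85 ± 0.45 (SD, n = 4) against 6.88 ± 0.14 (SD, n = 3). The difference was 0.97 (SE 0.21, adjusted p = 0.0215), 1.96-fold, and 1.03 within tag A arrays (adjusted p = 0.0348). Mef2c 1451506_at read 6.33, 6.42, 6.16 and 5.98 with MT2 and rose by 0.72 (adjusted p = 0.0163), at least 1.24-fold, a call lost without GFP 1 or GFP 2 (adjusted p = 0.0609 and 0.0739). This probe set met the filter through MT2 only, so the direction of its call follows in part from the filter. The lead call was lost when GFP 1, GFP 2 or GFP 3 was left out (adjusted p = 0.0677 to 0.0715 for differences of 0.93 to 1.05). No member passed with MT2 by the unequal-variance test (adjusted p = 0.170 for the lead), in 1 fit to all 24 arrays (adjusted p = 0.171) or with the tag added to it (adjusted p = 0.138). Meis1, 1 of the 3 stem cell markers tested, was higher with MT2 by 2.19 (adjusted p = 0.0104), and the part of stem cells in the Mef2c result was not tested.

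Mef2d, which is expressed widely and in most blood cells, read 8.13, 8.04, 7.77 and 8.04 with MT2. Every MT2 array was above the empty vector arrays, at 0.51 on average (SE 0.14, adjusted p = 0.0436), 1.42-fold. This call was lost in 5 of the 7 fits that left out 1 array, without MT2 1, MT2 2, MT2 4, GFP 2 or GFP 3 (differences of 0.40 to 0.49, adjusted p = 0.0780 to 0.167). Within tag A it was 0.49 (adjusted p = 0.0780). Mef2a went the other way with MT2, at 7.01, 7.33, 7.33 and 7.38. All 4 arrays were below the vector arrays, and the difference of −0.42 (SE 0.12, adjusted p = 0.0509) did not pass. After quantile normalization between arrays it was −0.52 (adjusted p = 0.0230). Leaving out MT2 3 gave 5 members past the threshold, and leaving out GFP 1 or GFP 3 gave 1 and GFP 2 gave 0. Over all probe sets, the calls ran from 170 to 1607 when 1 array was left out.

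With NHA9, the Mef2c lead was among the few probe sets that passed: 1 of the 8 members tested did, where 0.200% of all probe sets tested did. By limma, 1154 probe sets had an unadjusted p under 0.05. When 1 array was left out, the calls over all probe sets ran from 1 to 202. The Mef2c lead stood at 8.48 ± 0.22 (SD, n = 3), which was 1.60 above the vector (SE 0.16, adjusted p = 0.0178), 3.04-fold. All 3 NHA9 arrays were more than 1 log2 unit above all 3 vector arrays. Within tag A the difference was 1.48 (adjusted p = 0.00467). Mef2c 1451506_at read 5.98, 6.22 and 7.52 with NHA9, a difference of 1.07 that did not pass (adjusted p = 0.363) and is at least 1.59-fold, since the vector group lay under the background level. Here too it met the filter through the oncogene group only. The 3 remaining Mef2c probe sets had both group means under the background level and were not tested. On NHA9 3 that probe set and the Mef2a probe set 1452347_at (8.30, against 7.28 and 7.16) were highest of the group, and this array had the lowest 3' minus 5' difference of the group for Gapdh (2.58). The part of RNA quality in these values was not tested.

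The Mef2c call with NHA9 was kept without NHA9 3. It was lost without NHA9 1, NHA9 2 or any vector array, with differences of 1.56 to 1.69 and adjusted p of 0.0639 to 0.119. It was also lost by the unequal-variance test (adjusted p = 0.476), in 1 fit to all 24 arrays (adjusted p = 0.179) and with the tag added to it (1.37, adjusted p = 0.109). Mef2a read 7.87, 7.63 and 8.21 and Mef2d 7.70, 7.71 and 7.95 with NHA9. Both overlapped the vector group, with differences of 0.23 (adjusted p = 0.633) and 0.29 (adjusted p = 0.541).

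With AE, 1 of the 8 members tested passed, where 11.0% of all probe sets tested passed, so the members' share is near that of the whole array. It was Mef2c 1451506_at, which read 5.96, 6.63, 6.51 and 6.16 and rose by 0.81 (SE 0.19, adjusted p = 0.0273), at least 1.33-fold. It met the filter through AE only, as every vector array lay under the background level, so the direction of the call follows in part from the filter. This call was lost without AE 2, AE 3, GFP 1 or GFP 2 (adjusted p = 0.0672 to 0.136), by the unequal-variance test (adjusted p = 0.117), in 1 fit to all 24 arrays (adjusted p = 0.134) and with the tag added to it (adjusted p = 0.0582). The Mef2c lead differed by 0.65 (SE 0.25, adjusted p = 0.118). AE 1, the lowest AE array for the Mef2c lead, is the only one of tag A, the tag of all vector arrays. Its Mef2c value equalled the vector mean (a difference of 0.00, a single array with no test), and without it the difference was 0.87 (adjusted p = 0.00671). Tag and oncogene cannot be told apart in those 3 arrays. The 3' minus 5' difference of Gapdh was 2.50 on AE 2 and 2.86 on AE 3, the highest AE arrays for the Mef2c lead and 1451506_at. On AE 1 it was 3.91, on AE 4 4.07, and on the vector arrays 2.71 to 3.60. The part of RNA quality in these values was not tested.

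Mef2a with AE read 7.72, 8.37, 8.42 and 8.21, the highest group mean of the gene. It differed from the vector by 0.50 (SE 0.18, adjusted p = 0.107), by 0.66 without AE 1 (adjusted p = 0.00593), and by 0.04 for AE 1 alone, which has no test. Mef2d read 8.24, 7.91, 7.82 and 7.77, and differed by 0.45 (SE 0.17, adjusted p = 0.121). Without AE 1, 5 members passed, and without AE 2, AE 3, GFP 1 or GFP 2, none did. Over all probe sets, the calls ran from 329 to 3061 when 1 array was left out.

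Several markers of other cell types were higher with AE. Of 5 GMP markers tested, 2 were lower with AE and 0 higher, with a median of −0.34. None of 2 stem cell markers tested passed. The 1 T cell marker and the 1 erythroid marker tested differed by −0.35 and −0.24 and did not pass. The summed level of the 8 monocyte, macrophage and dendritic cell markers was 10574 to 13650 with AE against 6626 to 7300 with the vector, 6062 to 7842 with MT2 and 8867 to 9605 with NHA9. With AE, 3 of 7 tested rose (Csf1r, Cd14 and H2-Ab1). Of 3 megakaryocyte markers tested, Pf4 and Ppbp rose by 3.12 and 4.42 and the other did not pass. Gp1bb and Vwf were under the background level in both groups. The B cell receptor gene Cd79b rose by 1.29, as 1 of 2 B lymphoid markers tested, while the other was lower and did not pass. The median of the 2 was 0.44 beside 0.08 over all probe sets tested. Cd79a, Ebf1, Pax5 and Vpreb1 were under the background level. With MT2 or NHA9 against the vector, no monocyte, megakaryocyte or B lymphoid marker passed. The part of such cells in the Mef2 values was not tested.

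With all 11 oncogene arrays as 1 class against the 3 vector arrays, 0 of the 9 members tested passed by limma, and 0% of all probe sets did, although 1262 of them had an unadjusted p under 0.05. The Mef2c lead differed by 1.03 (SE 0.30, adjusted p = 0.277), Mef2d by 0.43 (adjusted p = 0.330) and Mef2a by 0.09 (adjusted p = 0.914). With the 3 oncogene groups weighted equally in the fit to the transduced arrays, Mef2c differed by 1.07 (adjusted p = 0.0287).

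Direct contrasts between oncogenes tested whether they differed from each other. Mef2a was lower with MT2 than with AE by 0.92 on the log2 scale (−0.92, SE 0.16, adjusted p = 0.00101), a 1.89-fold difference with no overlap between arrays. Mef2a 1452347_at also passed there (−0.80, adjusted p = 0.0309), so 2 of 8 members tested passed, where 28.5% of all probe sets tested did. The Mef2a lead call held without each array in turn (−1.07 to −0.84, adjusted p at most 0.00481) and when the tag was added to a fit of all 24 arrays (−0.64, adjusted p = 0.0292). That for 1452347_at was lost without MT2 1, MT2 2, MT2 4, AE 2 or AE 3 (adjusted p = 0.0743 to 0.0866), and in 1 fit to all 24 arrays without and with the tag (adjusted p = 0.107 and 0.134). Leaving out MT2 3 gave 4 members past the threshold, and leaving out MT2 1, MT2 2, MT2 4, AE 2 or AE 3 gave 1. Over all probe sets, the calls ran from 2413 to 3335 when 1 array was left out. In the same contrast 4 of 7 monocyte, macrophage and dendritic cell markers tested were lower with MT2, as were Pf4, Ppbp and Cd79b. Of 5 GMP markers tested, 4 were higher with MT2 and 1 was lower. Of 3 stem cell markers tested, 2 were higher with MT2 and 0 lower. The part of these cell types in the Mef2a result was not tested.

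Between MT2 and NHA9, 1 of 8 members tested passed, where 7.52% of all probe sets tested did: Mef2a was lower with MT2 (−0.64, SE 0.18, adjusted p = 0.0392). That call was kept without NHA9 2 and lost without any other single array (adjusted p = 0.0546 to 0.123), and in the fit to all 24 arrays without and with the tag (adjusted p = 0.220 and 0.0979). Between NHA9 and AE, 1 of 8 passed, where 7.23% of all probe sets tested did: Mef2c was higher with NHA9 (0.95, SE 0.26, adjusted p = 0.0395). It was kept without AE 2 or AE 3 and lost without AE 1, AE 4 or any NHA9 array (adjusted p = 0.0521 to 0.0958), and in the fit to all 24 arrays without and with the tag (adjusted p = 0.142 and 0.166). Mef2c did not pass between MT2 and NHA9 (−0.63, adjusted p = 0.151) or between MT2 and AE (0.31, adjusted p = 0.362), and Mef2d passed in none of the 3 contrasts.

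L-GMP against GMP asks how leukemic cells differ from the normal cells of the same surface phenotype. Of the 6 members tested, 0 passed by limma, where 4.86% of all probe sets tested did and 2014 had an unadjusted p under 0.05. Mef2c differed by −0.95 (SE 0.44, adjusted p = 0.308), Mef2a by 0.99 (SE 0.39, adjusted p = 0.226) and Mef2d by 0.62 (SE 0.39, adjusted p = 0.471). In each case the groups overlapped. L-GMP 1, the array with the highest 3' minus 5' difference, had the lowest L-GMP value of all 3 lead probe sets: 6.16 for Mef2c, 6.78 for Mef2a and 7.70 for Mef2d. The other L-GMP arrays read 7.55 and 8.09 for Mef2c, 7.63 and 7.94 for Mef2a, and 9.23 and 8.97 for Mef2d. Without L-GMP 1, Mef2d was higher than in GMP by 1.09 (adjusted p = 0.0479), Mef2a by 1.33 (adjusted p = 0.0636), and Mef2c differed by −0.40 (adjusted p = 0.437). Mef2c 1451506_at turned from −0.13 to 0.45 (adjusted p = 0.166). L-GMP 1 is also the only L-GMP array of tag A, and on this single array, with no test, Mef2d differed from the mean of tag A GMP by −0.17. The summed monocyte, macrophage and dendritic cell markers were 8606 to 12797 in L-GMP, with 1 of 6 tested higher than in GMP (Csf1r) and Fcgr1 under the background level. The part of RNA quality and of these cells in the Mef2 values was not tested.

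The order of group means for Mef2a was AE, NHA9, the empty vector, LSK, L-GMP, MT2 and GMP. Of the 6 gaps between neighbours, the last, from MT2 to GMP, passed by limma (0.80, adjusted p = 0.0405) where 13.6% of all probe sets tested did, although GMP 4 lay inside the MT2 range. The order for Mef2d was L-GMP, LSK, GMP, MT2, AE, NHA9 and the empty vector, and no gap between neighbours passed.

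The probe sets over the background level shared their gene's pattern for Mef2a and Mef2c but not for Mef2d. Across the 24 arrays, as a description over arrays that share groups and processing, Pearson's r with the Mef2a lead was 0.91 for 1452347_at, 0.86 for 1427186_a_at and 0.79 for 1421252_a_at. It was −0.33 for 1425426_a_at, which was under the background level on every array. With the Mef2c lead it was 0.84 to 0.92 for the 4 other Mef2c probe sets. The Mef2d probe sets disagreed: 1421388_at had an r of −0.52 with its lead. It was highest in normal GMP (6.49 ± 0.52, SD, n = 4) and lowest in LSK (5.94 ± 0.27, SD, n = 3), so statements on Mef2d hold for its lead probe set only.

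**Figure D3:**
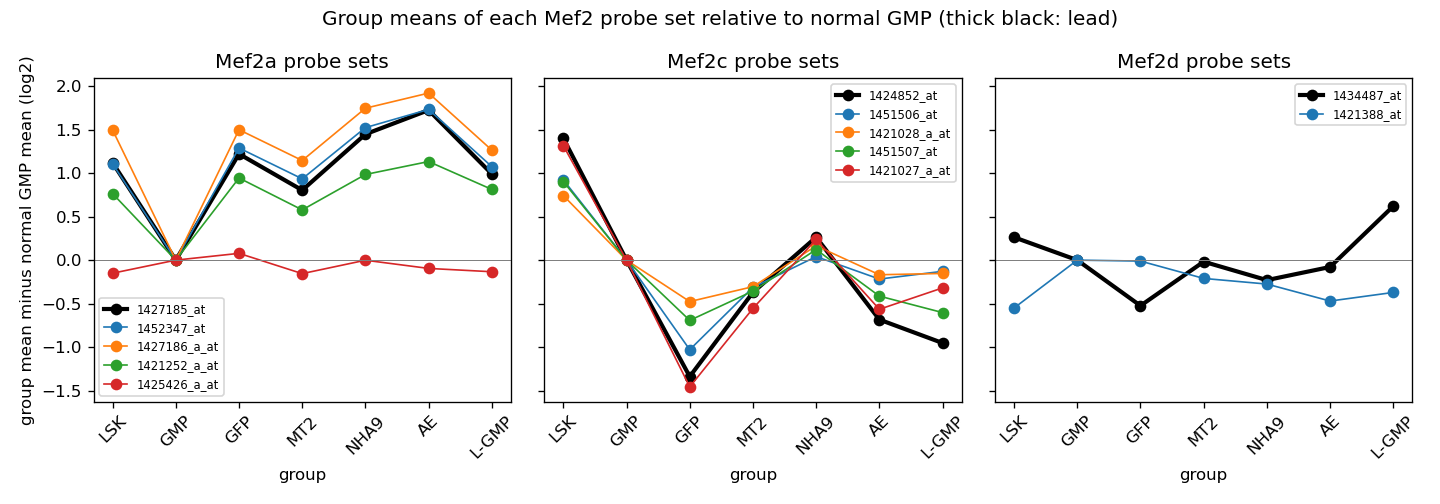
Group mean of each Mef2 probe set minus its mean in normal GMP (log2, vertical axis) over the 7 groups; 1 line per probe set, the lead in thick black. The 5 Mef2c lines rise in LSK and drop with the empty vector, 4 of the 5 Mef2a lines lie above 0 in every group other than GMP, and the 2 Mef2d lines part.

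On the same array, Mef2c minus Mef2a gives the balance of these genes with array-wide shifts removed. This measure was chosen after the values were seen, it is set to 0 at the mean of the GMP arrays, and it has no test. It lay between −0.24 and 0.31 in GMP and between 0.22 and 0.40 in LSK. With the empty vector it was −2.71 to −2.39, with AE −2.60 to −2.14 and in L-GMP −2.37 to −1.61. With NHA9 it was −1.32 to −0.99 and with MT2 −1.78 to −0.51. All 17 arrays of transduced or leukemic cells were below all 7 arrays of fresh normal cells. The MT2 and NHA9 arrays lay between the fresh normal cells and the empty vector, with no overlap on either side.

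**Figure D4:**
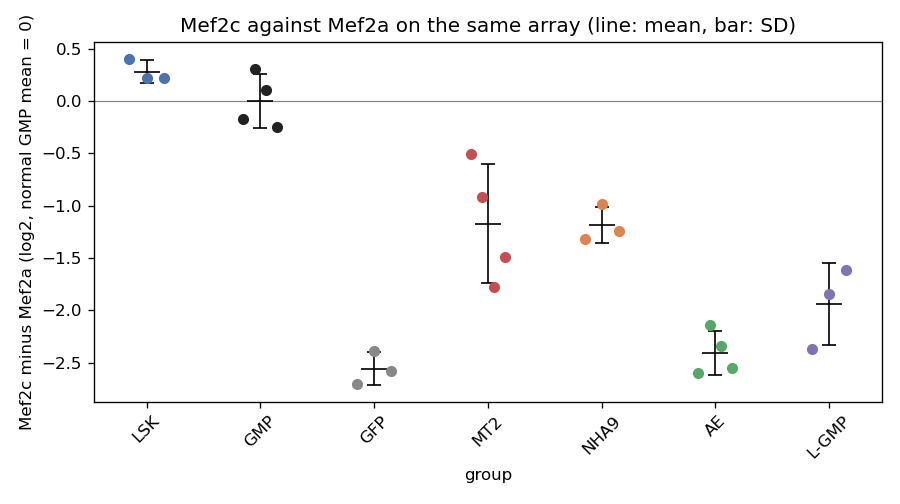
Log2 value of the Mef2c lead probe set minus that of the Mef2a lead probe set on each array (vertical axis, mean of normal GMP set to 0) by group; points are arrays, the line is the mean and the bar the SD. Empty vector and AE arrays lie between −2.71 and −2.14, and MT2 and NHA9 arrays between −1.78 and −0.51.

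Genes that act on Mef2 proteins were then read from 5 lists. In LSK against GMP, 15.1% of all probe sets tested passed, 10.1% as higher. There 3 of the 9 class IIa deacetylases and exporting kinases tested were higher and none lower, with a median difference of 0.63 beside 0.06 over all probe sets tested. The kinases were Camk1d (1.77, adjusted p = 0.000577), Prkd2 (1.40, adjusted p = 0.00286) and Camk2g (0.85, adjusted p = 0.0264). The coactivator Crebbp, a histone acetyltransferase, was higher in LSK by 0.82 (adjusted p = 0.0401), as 1 of 4 coactivators tested. None of 5 MAP kinases and none of 5 calcineurin genes passed. Of 4 genes known as Mef2 targets, 1 passed, Jun, which encodes a subunit of the AP-1 factor: it stood at 11.00 ± 0.86 (SD, n = 3) in LSK and 8.78 ± 0.95 (SD, n = 4) in GMP.

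In the empty vector group against GMP, 15.7% of all probe sets tested passed, 7.43% as lower. There 2 of 4 coactivators fell and none rose (median −0.51 beside −0.04 over all probe sets tested). Kat2a, an acetyltransferase, fell by 1.48 (adjusted p = 0.00259) and Carm1, an arginine methyltransferase, fell by 0.75 (adjusted p = 0.0195). The deacetylase kinase Prkd3 fell by 0.73 (adjusted p = 0.0464), as 1 of 8 in its list. Jun fell by 1.95 (adjusted p = 0.0201), as 1 of 4 targets. None of 5 MAP kinases and none of 4 calcineurin genes passed.

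With AE against the vector, where 11.0% of all probe sets tested passed, AE 2, AE 3 and AE 4 carry tag B and the vector arrays tag A, so tag and oncogene cannot be told apart there. In that comparison 4 of 8 deacetylases and kinases rose and none fell (median 0.43 beside 0.08 over all probe sets tested): Camk1, a calcium and calmodulin dependent kinase (1.94, adjusted p = 0.00373), Hdac5, a class IIa deacetylase (0.65, adjusted p = 0.0269), Prkd3 (0.55, adjusted p = 0.0347) and Mark3 (0.60, adjusted p = 0.0368). Of 6 MAP kinases, 2 rose: Map3k3 (1.15, adjusted p = 0.00176) and Mapk7, which encodes ERK5 (0.88, adjusted p = 0.0119). The calcineurin inhibitor gene Rcan3 rose (1.35, adjusted p = 0.0177), as 1 of 5 in its list. Of 4 coactivators, Kat2a (0.82, adjusted p = 0.0347) and Crebbp (0.64, adjusted p = 0.0433) rose. Of 5 targets, Jun (1.92, adjusted p = 0.00320) and Il7r, the interleukin-7 receptor gene (1.24, adjusted p = 0.0179), rose, and Klf4 fell by 0.89 (adjusted p = 0.0374).

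With MT2, where 11.8% of all probe sets passed, Prkd3 rose by 0.54 (adjusted p = 0.0234), as 1 of 8 in its list, and Kat2a by 0.66 (adjusted p = 0.0253), as 1 of 4. Of 3 targets tested, Klf2 fell by 0.44 (adjusted p = 0.0371). None of 5 MAP kinases or 5 calcineurin genes passed with MT2, and with NHA9 no gene of the 5 lists did, where 0.200% of all probe sets passed. Between oncogenes, 28.5% of all probe sets tested passed for MT2 against AE and 7.52% for MT2 against NHA9. Jun was lower with MT2 than with AE (−2.50, adjusted p = 0.000201) and with NHA9 (−1.42, adjusted p = 0.0348). Map3k3 was lower with MT2 than with AE (−1.32, adjusted p = 5.12e-06), and Camk1 too (−1.54, adjusted p = 0.000593). In MT2 against AE, 2 of 6 MAP kinases tested were lower with MT2 and 1 was higher. Also lower were 2 of 8 deacetylases and kinases, 1 of 4 coactivators, 1 of 5 calcineurin genes and 2 of 5 targets. Lower with MT2 than with NHA9 were 1 of 5 MAP kinases and 1 of 5 targets. For NHA9 against AE, 7.23% of all probe sets tested passed. There 1 of 8 deacetylases and kinases, 1 of 6 MAP kinases, 1 of 5 calcineurin genes and 1 of 4 coactivators were lower with NHA9.

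In L-GMP against GMP, where 4.86% of all probe sets tested passed, Camk1 rose by 1.62 (adjusted p = 0.0171), as 1 of 8 in its list. Klf2 rose by 2.53 (adjusted p = 0.0477), as 1 of 4 targets. None of 5 MAP kinases, 4 calcineurin genes or 4 coactivators passed. Hdac4, Sik2, Sik3, Cabin1 and Ep300 had no probe set with a single symbol and were not analysed here.

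**Figure D5:**
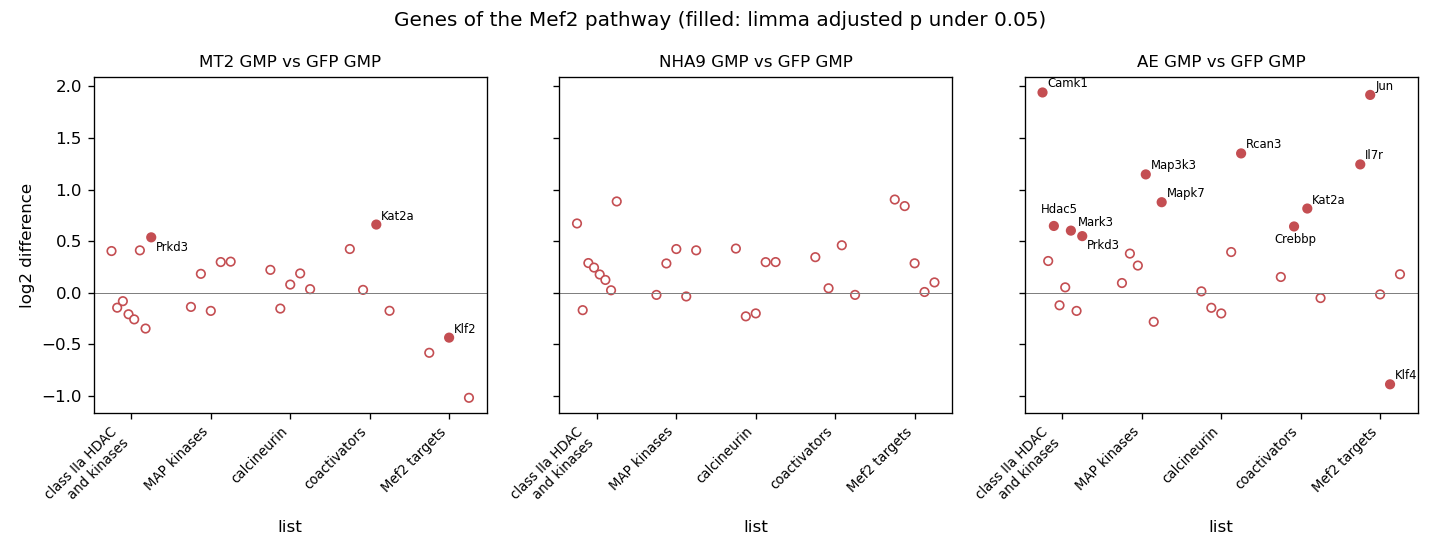
Log2 difference (vertical axis) of each tested gene of 5 Mef2 pathway lists (horizontal axis) with MT2, NHA9 or AE against the empty vector; 1 point per gene, filled and named where the limma adjusted p is under 0.05. No gene is filled with NHA9, while Camk1 (1.94) and Jun (1.92) stand highest with AE.

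The genes whose pattern over the 24 arrays was most like a lead probe set were picked by Pearson's r among 7590 genes, as a description. For Mef2a they were Trpv2 (0.939), Bach1 (0.926), Prr13 (0.908), Sh3glb1 (0.908) and Chmp1a (0.907). For Mef2c they were Tcf12 (0.856), Parn (0.856), Cd72 (0.850), Mtap (0.849) and Sesn1 (0.849). For Mef2d they were Fkbp7 (0.897), Rsl24d1 (0.893), Fnbp4 (0.890), Kansl2 (0.878) and Brd2 (0.875). Bach1, a transcription repressor that senses heme, had group means from 8.23 in GMP to 9.51 with AE, the same end points as Mef2a. Cd72, a lymphocyte surface receptor, had its highest mean in LSK (7.69) and its lowest with the empty vector (5.20), as Mef2c did. Its means with the vector, MT2 (5.21), L-GMP (5.25), AE (5.29) and NHA9 (5.86) all lay under the background level. Bach1 and Cd72 were picked for a like pattern, so shared end points follow in part from that choice.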

How the data were processed

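Log2 expression estimates were deposited for 22690 probe sets on 24 arrays. The authors made them with GCRMA 2.4.1 from MAS5 cell files, per the submitters' processing notes, a method that models background from probe sequences and equalizes arrays, so small shifts common to all probe sets are removed. Per the series design text, outlier arrays were removed before deposit. The values were used as deposited, on the log2 scale, after leaving out 64 control probe sets. The number of arrays limits the precision.

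A probe set was tested if, in at least 1 of the groups compared, its linear value exceeded 60 on at least 2 arrays. Tests used limma 3.58.1 (lmFit, eBayes) in R 4.3.3, with Benjamini-Hochberg adjustment over all probe sets tested and a threshold of 0.05. Comparisons used the arrays of their groups; contrasts between oncogenes used 1 fit to the transduced arrays, and the F-test 1 fit to all arrays. All 12 member probe sets matched RefSeq genes of the same symbol. A group whose mean lay under 60 gives a fold only as a lower bound, the other group's mean against 60. The fits were tested on simulated data.

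The named genes are all members, up to 4 genes past the threshold per pathway list and comparison, and the 5 genes most like each lead probe set. In the contrasts between oncogenes, only Jun, Map3k3 and Camk1 are named from the lists, and the other genes past the threshold are only counted. Other genes named are listed cell markers. Members and lists were chosen with earlier results of these data known. Alternatives were the design text's test with unequal variances, no filter, quantile normalization, eBayes with trend, a fit to all arrays, the file name tag, the replicate number as a block, and leaving out each array. File names carry tag A, tag B or none; its meaning is not stated in the labels. Leaving out arrays in the F-test and in all oncogenes against the vector, and quantile normalization in the F-test, were added after seeing the data. Same-numbered arrays did not deviate together in every pair of any comparison, so numbers were not taken to pair samples.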

Additional observations from a re-analysis of the deposited data

Results flagged for a closer look

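Within groups of 4 arrays, the highest or lowest array was compared with its neighbours for 36 groups of values, and 2 stood apart; chance alone marks about 1 in 20. The MT2 1 value of Mef2a 1427185_at, 7.01, was low beside 7.33, 7.33 and 7.38. The MT2 3 value of Mef2a 1421252_a_at, 6.35, was high beside a group median of 5.45.

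Effects that differed between oncogenes by a direct contrast of limma were Mef2a 1427185_at between MT2 and NHA9 (−0.64) and between MT2 and AE (−0.92), Mef2a 1452347_at between MT2 and AE (−0.80), and Mef2c 1424852_at between NHA9 and AE (0.95).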

How the results depend on the processing

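All alternatives together gave 31 reversed directions among values of single probe sets, with 954 that kept direction and side of the threshold, 94 that no longer passed and 45 that newly passed. Apart from the F-test, no comparison had more than 4 members past the threshold in the main fits. Most of the 954 values thus had no call to lose. Counts below are members past the threshold. In the 6 comparisons fitted with an eBayes trend, no lead call changed. The number of arrays and, for the weaker probe sets, signals near the background level limit the precision; the causes of the changes below were not tested beyond the smaller number of arrays in some fits.

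In 1 fit to all 24 arrays, the counts were 0 for MT2, NHA9 and AE against the vector, 0 for MT2 against NHA9 and NHA9 against AE, 1 for MT2 against AE and 1 for L-GMP against GMP. There Mef2a in L-GMP against GMP passed (0.99, adjusted p = 0.0154), while Mef2c with MT2 (0.97, adjusted p = 0.171), Mef2c with NHA9 (1.60, adjusted p = 0.179) and Mef2d with MT2 (0.51, adjusted p = 0.384) did not. By the unequal-variance test of the design text, the counts were 0 for MT2, NHA9 and AE against the vector, 0 for LSK against GMP and 0 for the vector against GMP. The values lost were Mef2a in the vector group (1.22, adjusted p = 0.149) and LSK (1.12, adjusted p = 0.171), Mef2c in the vector group (−1.34, adjusted p = 0.0719) and LSK (1.40, adjusted p = 0.0747), Mef2c with MT2 (0.97, adjusted p = 0.170) and NHA9 (1.60, adjusted p = 0.476), and Mef2d with MT2 (0.51, adjusted p = 0.207). The mean of the 3 oncogene group means against the vector gave a count of 1. With no filter, Mef2a in LSK (1.12, adjusted p = 0.0658) and Mef2d with MT2 (0.51, adjusted p = 0.0545) no longer passed.

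After quantile normalization, Mef2a with MT2 passed (−0.52, adjusted p = 0.0230), Mef2d with MT2 did not (0.39, adjusted p = 0.0819), and Mef2a 1421252_a_at with NHA9 turned to −0.0209. Same-numbered samples correlated between −0.43 and 0.49, so numbers were not read as pairs. With the replicate number as a block, the counts were 0 for NHA9 and AE against the vector, 4 for MT2 against AE and 0 for NHA9 against AE, Mef2c with NHA9 was 1.60 (adjusted p = 0.0524), Mef2d with MT2 was 0.49 (adjusted p = 0.0604), and Mef2a 1421252_a_at with all oncogenes turned to 0.0035.

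Within tag A, the count was 2 for LSK against GMP, Mef2a in LSK was 1.29 (adjusted p = 0.0554) and Mef2d with MT2 0.49 (adjusted p = 0.0780). The AE and L-GMP values within tag A rest on 1 array each and carry no test. Directions turned within tag A for Mef2a 1421252_a_at with AE (−0.15) and NHA9 (−0.14), Mef2a 1452347_at with NHA9 (−0.13) and Mef2d in L-GMP (−0.17). With the tag as a factor, the counts were 0 for MT2, NHA9 and AE against the vector, 0 for MT2 against NHA9 and NHA9 against AE, 1 for MT2 against AE and 3 for L-GMP against GMP. In L-GMP, Mef2a (0.77, adjusted p = 0.0408) and Mef2c (−1.32, adjusted p = 0.0144) then passed, and Mef2c with MT2 (0.87, adjusted p = 0.138), Mef2c with NHA9 (1.37, adjusted p = 0.109) and Mef2d with MT2 (0.49, adjusted p = 0.302) did not. Directions turned for Mef2a 1421252_a_at with NHA9 (−0.15), for Mef2c 1451506_at between MT2 and NHA9 (0.0154) and between NHA9 and AE (−0.074), and for Mef2d 1421388_at between MT2 and AE (−0.0436) and between NHA9 and AE (−0.10).

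Leaving out 1 array at a time gave counts of 0 to 5 for MT2 and for AE against the vector, 0 to 1 for NHA9, 2 to 7 for LSK against GMP and for the vector against GMP, 0 to 1 for L-GMP, 0 to 1 for MT2 against NHA9 and NHA9 against AE, 1 to 4 for MT2 against AE and 8 to 10 over the 7 groups. Over all probe sets, the calls in these fits ran from 170 to 1607 for MT2, 329 to 3061 for AE and 1 to 202 for NHA9. They ran from 765 to 2864 for LSK against GMP, 811 to 4043 for the vector against GMP and 211 to 1180 for L-GMP. Between oncogenes they ran from 239 to 1085 for MT2 against NHA9, 408 to 1393 for NHA9 against AE and 2413 to 3335 for MT2 against AE. The Mef2a lead ran from 0.42 to 0.66 with AE, 0.93 to 1.44 in the vector group and 0.83 to 1.34 in LSK. The Mef2c lead ran from 0.50 to 0.87 with AE, 0.83 to 1.15 with MT2 and 1.48 to 1.69 with NHA9. The Mef2d lead ran from −0.72 to −0.38 in the vector group, 0.32 to 1.09 in L-GMP and 0.40 to 0.63 with MT2. Directions turned for weaker probe sets whose range crosses 0. For Mef2a 1421252_a_at the ranges were −0.33 to 0.0550 between NHA9 and AE, −0.14 to 0.24 with NHA9 and −0.12 to 0.00446 with all oncogenes. For Mef2a 1427186_a_at they were −0.41 to 0.11 between NHA9 and AE, −0.0287 to 0.53 with NHA9 and −0.18 to 0.23 with all oncogenes. For Mef2a 1452347_at they were −0.13 to 0.44 with NHA9 and −0.0684 to 0.21 with all oncogenes. For Mef2c 1451506_at they were −0.50 to 0.45 in L-GMP, −0.21 to 0.00761 between MT2 and AE, −0.65 to 0.12 between MT2 and NHA9 and −0.22 to 0.56 between NHA9 and AE. For Mef2d 1421388_at they were −0.22 to 0.19 in the vector group and −0.12 to 0.20 between MT2 and NHA9.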
